A study of Mus musculus with 4 samples.

Results

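Trap1a, Magea10, Xlr, Dcaf8l, Psg23 and Plac1 are tumour rejection, cancer-testis and placental genes, and they were followed across the cell types of Dnmt1 CKO and wild type fetal mouse lungs. The 6 symbols were chosen from results of these same data, because they were high in mutant mesenchyme or, for Plac1, in mutant alveolar type 1 cells. All 6 were found among the 55471 gene identifiers of the deposited tables. Their difference between genotypes in those cells is therefore given as a description, with no test.

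The data are droplet-based 3′ single-cell RNA libraries of enzymatically dissociated lungs, depleted of red blood cells, at E18.5, shortly before birth, 2 from Dnmt1 CKO lungs and 2 from wild type lungs. The mutant combines Tbx4-rtTA, whose promoter is active in lung mesenchyme, with Tet-O-Cre, which that activator switches on, and with the allele pair written Dnmt1-D/D. Cre acts there on Dnmt1, the enzyme that keeps DNA methylation in place when cells divide. Which part of Dnmt1 the allele alters is not in the labels, nor is it stated when the activator was induced, whether the wild type lungs carried the transgenes, or whether each library is a separate animal, so p-values measure the spread between these 4 libraries. The deposited barcodes held 49582593 and 54334468 UMIs (counted molecules) in Dnmt1 CKO libraries 1 and 2, and 48213065 and 56760219 UMIs in wild type libraries 1 and 2. After filtering, 4323 and 5675 Dnmt1 CKO cells and 5111 and 4932 wild type cells remained, and any 2 libraries shared at most 10 cell barcodes. Dnmt1 CKO library 1 and wild type library 2 were male by the Y-linked Ddx3y, and the others were female, so each genotype held both sexes. Cell classes carry the ending "-like" because they were rebuilt from marker genes. Levels are CPM, the UMIs of a gene as parts per 1e6 of all UMIs of its class in the library.

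Dnmt1 itself fell in mesenchymal-like cells, to 9.78 and 12.7 CPM in Dnmt1 CKO against 27.6 and 26.035 CPM in wild type (log2 fold change -1.27, SE 0.214, adjusted p = 0.0062 by edgeR's quasi-likelihood test). Its log2 fold changes of 0.02 in epithelial-like, -0.01 in endothelial-like and 0.01 in immune-like cells did not pass the test.

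Cancer-testis genes are normally active in germ cells of the testis and silent in most adult tissues, and many of them are switched on in tumours. A large share of them lie on the X chromosome and carry methylated promoters in somatic cells. Trap1a encodes P1A, a mouse tumour rejection antigen recognised by T cells and otherwise made in testis and placenta. Magea10 belongs to the type I Mage family, whose proteins bind RING ubiquitin ligases. Xlr is a nuclear protein gene first described in lymphoid cells and related to the synaptonemal complex gene Sycp3. Dcaf8l is named as a relative of Dcaf8, a substrate receptor of the Cul4-Ddb1 ubiquitin ligase. Psg23 belongs to the pregnancy-specific glycoproteins that trophoblast secretes into the maternal blood, and Plac1 is a trophoblast gene with a role in placental growth.

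On GRCm38, 5 of the 6 genes lie on the X chromosome and Psg23 lies on chromosome 7. In GENCODE vM21, Trap1a (ENSMUSG00000051257.3) covers chrX:139333683-139338169 on the plus strand in 3 exons, and the non-coding Platr21 overlaps it on the other strand. The other genes lie on the minus strand: Magea10 (ENSMUSG00000043453.5) at chrX:72381870-72386858, Xlr (ENSMUSG00000054626.11) at chrX:53777118-53797706, Plac1 (ENSMUSG00000061082.11) at chrX:53069995-53240111, Psg23 (ENSMUSG00000074359.2) at chr7:18606343-18616501, and Dcaf8l (ENSMUSG00000035395.11, named Pet2 in that annotation) at chrX:89403848-89409689. All 6 are annotated as protein coding.

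The sequences just upstream of the transcription start are shown because Dnmt1 methylates CpG sites and the 250 bases upstream show how few of them some of these genes carry. They come from RefSeq on GRCm38.p6, run 5′ to 3′ on the gene's own strand, and have each CpG in capitals. Entries were matched for 5 of the 6 genes, and Dcaf8l was not matched. Trap1a is at chrX:139333433-139333682 (plus strand), Magea10 at chrX:72386859-72387108, Xlr at chrX:53797707-53797956, Psg23 at chr7:18616502-18616751 and the downstream of 2 Plac1 starts at chrX:53114406-53114655 (all minus strand).
Trap1a: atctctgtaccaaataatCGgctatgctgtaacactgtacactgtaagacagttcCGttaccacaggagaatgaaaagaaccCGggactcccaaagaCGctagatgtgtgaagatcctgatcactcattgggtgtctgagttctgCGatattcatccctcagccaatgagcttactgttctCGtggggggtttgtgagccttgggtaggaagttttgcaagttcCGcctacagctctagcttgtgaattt
Magea10: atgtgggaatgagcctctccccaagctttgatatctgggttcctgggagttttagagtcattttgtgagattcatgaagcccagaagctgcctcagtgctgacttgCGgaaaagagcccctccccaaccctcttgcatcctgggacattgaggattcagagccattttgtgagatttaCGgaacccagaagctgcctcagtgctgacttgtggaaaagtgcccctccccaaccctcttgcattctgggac
Xlr: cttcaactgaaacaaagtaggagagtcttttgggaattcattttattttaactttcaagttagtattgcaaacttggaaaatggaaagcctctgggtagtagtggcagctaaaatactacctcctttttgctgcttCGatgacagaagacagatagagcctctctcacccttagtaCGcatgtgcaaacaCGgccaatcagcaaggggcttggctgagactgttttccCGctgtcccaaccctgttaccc
Psg23: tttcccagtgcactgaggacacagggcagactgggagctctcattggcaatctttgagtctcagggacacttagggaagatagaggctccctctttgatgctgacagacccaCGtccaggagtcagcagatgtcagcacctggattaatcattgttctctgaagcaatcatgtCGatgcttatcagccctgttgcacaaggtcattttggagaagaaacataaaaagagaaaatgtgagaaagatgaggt
Plac1: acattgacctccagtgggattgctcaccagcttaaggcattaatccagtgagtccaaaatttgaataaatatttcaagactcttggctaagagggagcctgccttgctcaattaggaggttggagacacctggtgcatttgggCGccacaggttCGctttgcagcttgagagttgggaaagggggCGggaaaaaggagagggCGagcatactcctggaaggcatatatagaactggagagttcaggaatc

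Trap1a had 7 CpG sites in this window, Xlr and the Plac1 start shown had 4 each, and Magea10 and Psg23 had 2 each. The upstream Plac1 start, which is not shown, also had 2. The median over 32841 promoters of the same length was 6, and 53.7% of promoters held fewer than Trap1a while 18.8% held fewer than Magea10 or Psg23. The letters TCCCGC, read on both strands, occurred in Xlr and in the Plac1 start shown and in 16.9% of all promoters. The letters CACGTG, which read the same on both strands, occurred in none of these windows and in 6.02% of all promoters. Methylation itself was not measured here.

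In mesenchymal-like cells, all 6 genes were higher in both Dnmt1 CKO libraries than in either wild type library. The genes were chosen for high levels in the mutant, so nothing is read from this order. Trap1a gave 1789 and 1378 UMIs in Dnmt1 CKO mesenchymal-like cells (88.8 and 80.6 CPM), against 0 and 1 UMI in wild type. Psg23 gave 702 and 766 UMIs in Dnmt1 CKO (34.8 and 44.8 CPM), against 1 and 0 UMIs in wild type. Dcaf8l gave 778 and 614 UMIs in Dnmt1 CKO (38.6 and 35.9 CPM), against 0 and 0 UMIs in wild type. These 3 genes were at 0 or 1 UMI in each wild type library and were read at 614 UMIs or more in each mutant library. Summed over libraries, the ratio of Dnmt1 CKO to wild type was 3182 for Trap1a (exact 95% counting interval 571 to 125713) and 1475 for Psg23 (264 to 58293). Dcaf8l was at least 466-fold higher, against a floor of 3 UMIs over the wild type group. Such intervals and floors cover counting error only.

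Xlr and Plac1 differed from the others in that wild type mesenchyme already held some transcript. Xlr gave 582 and 361 UMIs in Dnmt1 CKO mesenchymal-like cells (28.9 and 21.1 CPM), against 29 and 20 UMIs in wild type (1.68 and 0.990 CPM), a ratio of 19.3 (14.5 to 26.3). Plac1 gave 61 and 51 UMIs in Dnmt1 CKO (3.03 and 2.98 CPM), against 15 and 4 UMIs in wild type (0.871 and 0.198 CPM), a ratio of 5.92 (3.62 to 10.2). Magea10 was read rarely, with 19 and 10 UMIs in Dnmt1 CKO against 0 and 0 UMIs in wild type, at least 9.71-fold. The fitted log2 fold changes were 11.30 for Trap1a, 12.44 for Dcaf8l, 10.21 for Psg23, 6.85 for Magea10, 4.22 for Xlr and 2.50 for Plac1. The Plac1 value was 3.92 without wild type library 1 and 1.72 without wild type library 2. Where the wild type group has no or 1 UMI these fitted values depend on the prior count and are no bounds. All 6 genes passed the low-count filter, and among all 16152 genes tested in this class edgeR called 7.25% higher and 13.1% in either direction. The genes were picked from this contrast, so nothing is read from their count against that background.

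**Figure D1:**
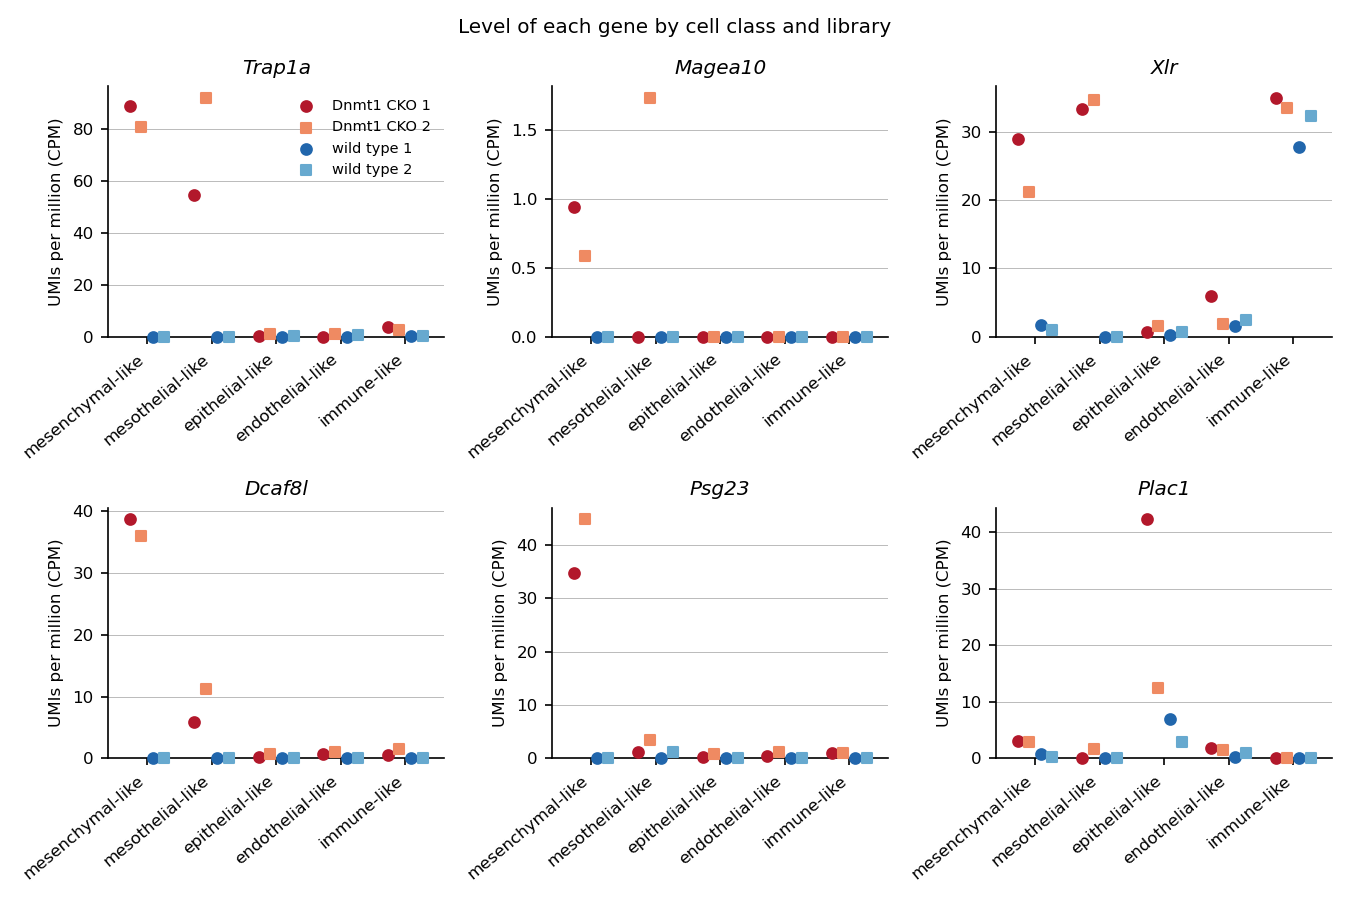
CPM (vertical axis, linear, one scale per gene) of the 6 genes in 5 cell classes; each point is 1 library, red for Dnmt1 CKO and blue for wild type. Trap1a, Dcaf8l and Psg23 stand above 0 chiefly in Dnmt1 CKO mesenchymal-like cells, Trap1a and Xlr also in Dnmt1 CKO mesothelial-like cells, Xlr in immune-like cells of all 4 libraries, and Plac1 in epithelial-like cells with Dnmt1 CKO library 1 highest at 42.3 CPM.

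Some UMIs counted for Xlr and Psg23 may be shared with other genes of similar sequence. The last 400 bases of the Xlr transcript were 95.8% identical to 3830403N18Rik, which gave 602 and 401 UMIs in Dnmt1 CKO mesenchymal-like cells against 44 and 68 UMIs in wild type. The end of Psg23 was 89.9% identical to the non-coding A230059L01Rik, with 89 and 57 UMIs in Dnmt1 CKO against 3 and 0 UMIs in wild type. How reads were divided between these pairs was not tested, so the level of Xlr in particular is uncertain. The longest match of Trap1a to another gene was 55 bases, and none was found for Magea10, Dcaf8l or Plac1.

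Within the mutant mesenchyme the genes did not have 1 common pattern. The values by cluster describe the 2 mutant libraries, with no test, since the clusters were formed on these same cells and parted by genotype. X-linked genes, and so 5 of the 6, were not among the genes used for clustering. The cluster with the most Trap1a reached no subclass name. It was led by the acute-phase gene Saa3 and the germ-cell RNA-binding gene Dazl, with Trap1a itself among its 10 leading genes, and held 884 and 947 Dnmt1 CKO cells against 7 and 6 wild type cells. Trap1a stood there at 135.8 and 136.2 CPM, while Dnmt1 was at 5.62 and 4.19 CPM. In smooth muscle-like cells, marked by Myh11 and Actg2, Trap1a was at 89.0 and 103.7 CPM with Dnmt1 at 2.90 and 4.03 CPM. Igf1, Ibsp, Htra1 and the myofibroblast marker Tgfbi were also leading genes of that cluster. A mutant cluster led by these genes was named myofibroblast and smooth muscle-like with Leiden resolution 2.0 and with stricter cell filters. With doublets kept the name stayed smooth muscle-like. In matrix fibroblast-like cells, marked by Tcf21 and Wnt2 and taken over all clusters of that name, Trap1a was at 5.08 and 1.44 CPM with Dnmt1 at 30.5 and 21.6 CPM. That last Dnmt1 level compares with 21.8 and 21.7 CPM in wild type matrix fibroblast-like cells. The cycling mesenchymal-like cells held both, with Trap1a at 101.9 and 78.8 CPM and Dnmt1 at 24.8 and 41.2 CPM, although wild type cycling cells held Dnmt1 at 109.9 and 125.4 CPM.

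Psg23 was distributed differently. It was high in smooth muscle-like cells (54.6 and 99.1 CPM) and in the Saa3- and Dazl-led cluster (57.8 and 80.3 CPM), and lower in adventitial fibroblast-like cells (18.8 and 25.3 CPM), which are marked by Dcn and Lum. In cycling mesenchymal-like cells Psg23 was at 18.2 and 25.1 CPM. Xlr showed nearly the opposite order between adventitial and smooth muscle-like cells, with its highest level in adventitial fibroblast-like cells (35.7 and 36.3 CPM) and 29.0 and 25.4 CPM in smooth muscle-like cells. In the few wild type cells of these clusters, 31 and 27 adventitial and 30 and 43 smooth muscle-like, Xlr was not read. Dcaf8l followed Trap1a more closely, at 54.1 and 59.2 CPM in the Saa3- and Dazl-led cluster and 6.09 and 0.719 CPM in matrix fibroblast-like cells of all clusters. In myofibroblast-like cells, marked by Tgfbi and Hhip, Psg23 was not read in either mutant library, which held 32 and 99 such cells. Tgfbi was also a leading gene of the smooth muscle-like cluster, so no difference between these cell types is read from this.

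**Figure D2:**
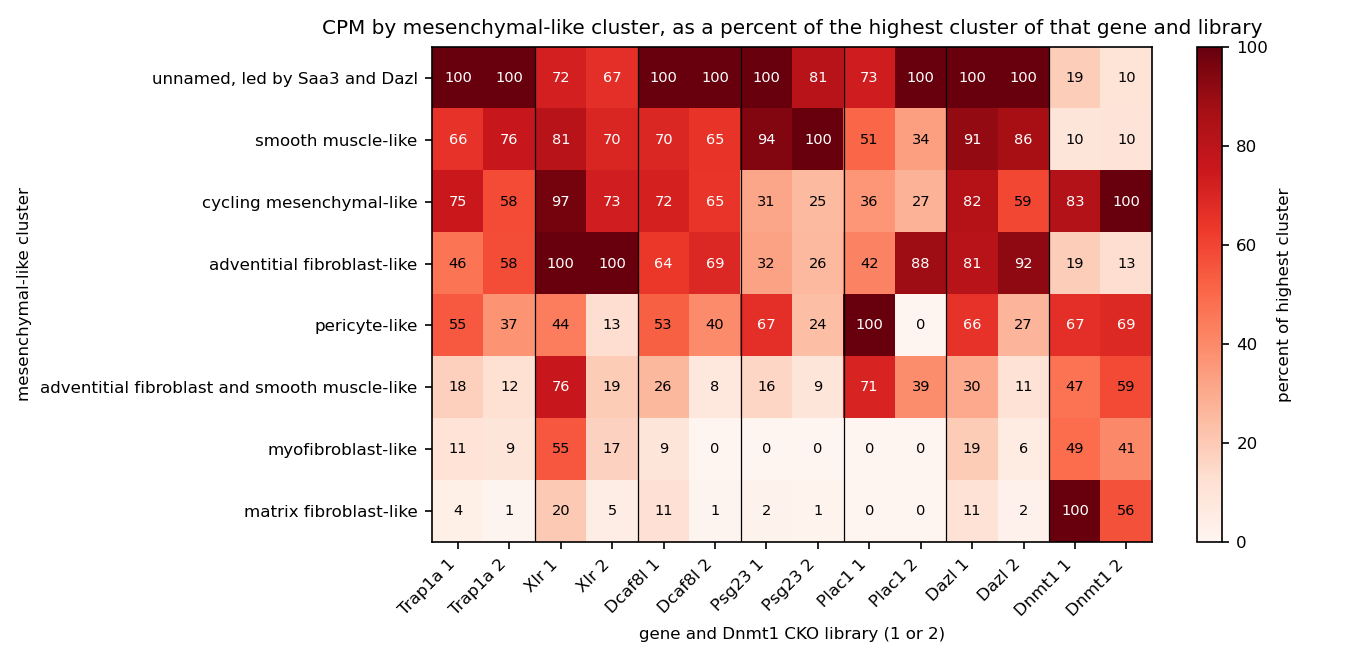
Each column is 1 gene in 1 of the 2 Dnmt1 CKO libraries, each row a mesenchymal-like cluster, and the number and colour give the CPM as a percent of the highest cluster of that column. The matrix fibroblast-like row is only the cluster of that name with 138 and 407 Dnmt1 CKO cells, while the text takes all such clusters. Trap1a and Dcaf8l peak in the unnamed Saa3- and Dazl-led cluster in both libraries, Xlr in adventitial fibroblast-like cells, and Psg23 is nearly as high or higher in smooth muscle-like cells, while Dnmt1 is highest in matrix fibroblast-like or cycling cells; percentages of Plac1 rest on 28 UMIs or fewer per cluster.

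Most single cells of the mutant mesenchyme showed none or 1 of these transcripts. No UMI of any of the 6 genes was found in 45.1% and 57.8% of Dnmt1 CKO mesenchymal-like cells, against 98.6% and 99.2% of wild type ones. In Dnmt1 CKO library 1, 402 of 2587 cells held 2 of the genes and 2 cells held 5, the most seen in any cell. In Dnmt1 CKO library 2, 331 of 2799 cells held 2 of the genes and 2 cells held 5. Depth differs between cells, so each cell was also thinned to 3000 UMIs, which kept 2443 and 2497 Dnmt1 CKO cells and 2614 and 2406 wild type cells and left out shallower ones. Trap1a was then found in 17.8% and 14.3% of Dnmt1 CKO mesenchymal-like cells (exact 95% intervals 16.3 to 19.3% and 12.9 to 15.7%), against 0 of 2614 and 0 of 2406 wild type cells, which allows shares of up to 0.115% and 0.125% by the limit of 3 cells (exact 95% upper bounds 0.141% and 0.153%). Unthinned, the Dnmt1 CKO shares were 25.1% and 18.9%. In Dnmt1 CKO epithelial-like cells, which are deeper (medians of 10288 and 8878 UMIs, against 7272 and 5814 in mesenchymal-like cells), the thinned share with Trap1a was 0.487% and 0.475%. It was 0 and 0.767% in Dnmt1 CKO endothelial-like cells, 0.757% and 0.891% in Dnmt1 CKO immune-like cells, and 7.50% and 9.38% in Dnmt1 CKO mesothelial-like cells. The part of free RNA in these shares was not tested.

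Thinned shares were 9.33% and 8.17% for Dcaf8l, 9.21% and 11.01% for Psg23 and 7.78% and 7.05% for Xlr in Dnmt1 CKO mesenchymal-like cells. In Dnmt1 CKO epithelial-like cells the shares were 0 and 0.190% for Dcaf8l and the same for Psg23. Plac1 was found in 0.778% and 0.481% of Dnmt1 CKO mesenchymal-like cells, against 0.383% and 0.0831% of wild type ones. The interval of Dnmt1 CKO library 2 (0.249 to 0.838%) overlapped those of both wild type libraries (0.184 to 0.702% in library 1). That of Dnmt1 CKO library 1 overlapped wild type library 1 and not wild type library 2. These intervals cover the draw of cells within a library and not the spread between libraries. No difference between genotypes is read from their overlap.

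The genes were then set beside Dazl, the germ-cell transcript that Dnmt1 CKO mesenchyme held at 499 and 538 CPM against 1 and 2 UMIs in wild type. Among thinned Dnmt1 CKO cells with a Dazl UMI, 21.7% and 20.8% also had a Trap1a UMI, against 13.1% and 8.28% of those without. Psg23 was found in 11.8% and 16.3% of cells with Dazl and in 6.10% and 6.11% of cells without. Dcaf8l gave 10.0% and 12.5% with Dazl and 8.52% and 4.10% without, so its intervals overlapped in Dnmt1 CKO library 1 and not in library 2. Dnmt1 in the same 2 sets of unthinned cells was 5.97 and 5.70 CPM with Dazl and 16.3 and 21.2 CPM without. Cells without a Dazl UMI thus still carried Trap1a and Psg23. Among the genes themselves, Dcaf8l was found in 18.7% and 17.9% of cells with Trap1a, against 7.32% and 6.54% of cells without, while Xlr was found in 6.91% and 11.2% with Trap1a and 7.96% and 6.36% without. Magea10 was too rare to compare: of 7 and 8 cells with it, 4 and 4 also had Dcaf8l.

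Xist gave a sharper split in the male mutant library. Xist, the X-linked RNA that silences 1 X chromosome in female cells, stood at 1895 CPM in mesenchymal-like cells of the male Dnmt1 CKO library 1, against 0.0495 CPM in the male wild type library 2. It stood at 3536 CPM in the female Dnmt1 CKO library and 1532 CPM in the female wild type library. In epithelial-like cells of the male Dnmt1 CKO library Xist was at 9.60 CPM. In that library, 23.6% of thinned mesenchymal-like cells with a Xist UMI had Trap1a (21.6 to 25.7%), against 4.53% of those without (3.16 to 6.27%). Dcaf8l was found in 12.1% (10.5 to 13.7%) with Xist and 3.20% (2.06 to 4.72%) without, and the autosomal Psg23 in 10.8% (9.38 to 12.4%) with and 5.59% (4.06 to 7.48%) without. Xlr went the other way, at 6.80% (5.64 to 8.10%) with Xist and 9.99% (7.94 to 12.4%) without, with intervals that just overlap. These are cells of 1 library, and no test was made over them.

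**Figure D3:**
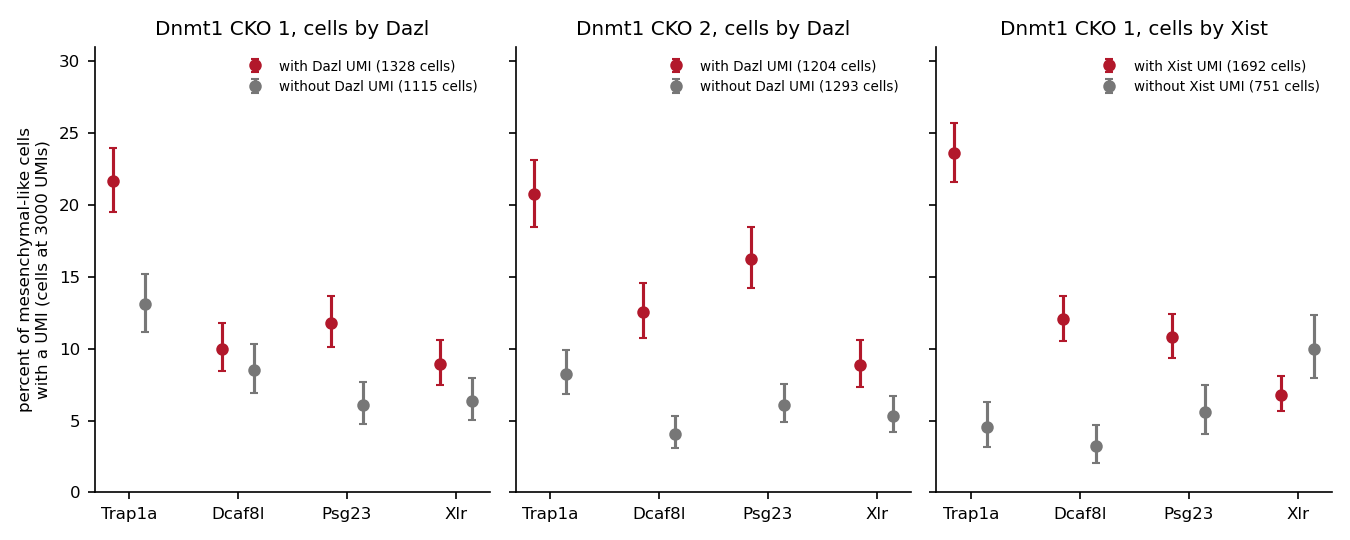
Percent of Dnmt1 CKO mesenchymal-like cells, each thinned to 3000 UMIs, with a UMI of the gene on the horizontal axis, split by whether the cell also had a Dazl UMI (left and middle, libraries 1 and 2) or a Xist UMI (right, male library 1); bars are exact 95% binomial intervals. Trap1a and Psg23 are higher in cells with Dazl in both libraries, and in the male library Trap1a is at 23.6% with Xist and 4.53% without, while Xlr is at 6.80% and 9.99%.

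Mesothelial-like cells stand for the thin cell layer that covers the lung surface. They numbered 40 and 67 in the Dnmt1 CKO libraries and 37 and 30 in the wild type libraries, and carried the mesothelial markers Upk3b and Lrrn4. Trap1a gave 46 and 106 UMIs in Dnmt1 CKO (54.6 and 91.9 CPM), against 0 and 0 UMIs in wild type. Xlr gave 28 and 40 UMIs in Dnmt1 CKO (33.2 and 34.7 CPM), against 0 and 0 UMIs in wild type. Against a floor of 3 UMIs over the wild type group, Trap1a was at least 33.8-fold and Xlr at least 15.1-fold higher in Dnmt1 CKO. Of the 6 genes these 2 passed the low-count filter in this class, and only through their mutant UMIs, so they had to differ and no p is given. edgeR called 0.491% of the 8760 genes tested higher and 0.571% in either direction, and nothing is read from the 2 genes against that share.

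Relative to mesenchyme, the genes stood at different levels in Dnmt1 CKO mesothelial-like cells. Trap1a reached 61.5% and 114% of its CPM in mesenchymal-like cells of the same library, and Xlr 115% and 164%. Dcaf8l reached 15.4% and 31.4% (5 and 13 UMIs), Psg23 3.41% and 7.74% (1 and 4 UMIs), and Dazl 10.7% and 25.8%. Magea10 and Plac1 gave 0 and 2 UMIs each, which is 297% and 58.2% of their mesenchymal CPM in Dnmt1 CKO library 2 and too few to compare. For every 100 Dazl UMIs there were 102 and 66.2 Trap1a UMIs in mesothelial-like cells, against 17.8 and 14.99 in mesenchymal-like cells. Psg23 went the other way, with 2.22 and 2.50 UMIs per 100 Dazl UMIs in mesothelial-like cells against 6.98 and 8.33 in mesenchymal-like cells. Mesenchymal markers summed to 8281 and 6691 CPM in Dnmt1 CKO mesothelial-like cells, against 13312 and 14779 CPM in wild type ones, and their part in the result was not tested. Dnmt1 was at 9.50 and 18.2 CPM in Dnmt1 CKO mesothelial-like cells against 52.2 and 47.7 CPM in wild type, which missed the threshold (log2 -1.84, SE 0.377, edgeR adjusted p = 0.0797).

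In immune-like cells Xlr was present in both genotypes. It stood at 34.9 and 33.4 CPM in Dnmt1 CKO and 27.7 and 32.3 CPM in wild type immune-like cells, a log2 fold change of 0.25 that did not pass the test (SE 0.211, edgeR adjusted p = 0.979). Both Dnmt1 CKO values lay above both wild type values, by less than the spread between libraries lets the test resolve. Dendritic-like cells, marked by H2-Aa, held the highest level, at 144.7 and 135.3 CPM in Dnmt1 CKO and 145.7 and 84.3 CPM in wild type, from 16 to 32 UMIs per library. Macrophage-like cells, marked by C1qa, held 42.0 and 36.0 CPM in Dnmt1 CKO and 30.3 and 36.0 CPM in wild type. Neutrophil-like cells gave no Xlr UMI in any library. For comparison, Xlr stood at 28.9 and 21.1 CPM in Dnmt1 CKO mesenchymal-like cells and 33.2 and 34.7 CPM in Dnmt1 CKO mesothelial-like cells.

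Trap1a was also read in Dnmt1 CKO immune-like cells, at 3.93 and 2.85 CPM (32 and 20 UMIs), against 0.267 and 0.392 CPM (1 and 2 UMIs) in wild type. The log2 fold change of 3.31 (SE 0.629) did not pass the adjusted threshold. Trap1a passed the low-count filter here only through its mutant UMIs, so no p is given and nothing is read from this fit. The level was 4.43% and 3.54% of that in mesenchymal-like cells. Dazl, at 8.85 and 10.1 CPM in the same cells, lay at 1.77% and 1.88% of its mesenchymal level. Of the 6 genes only Trap1a and Xlr passed the filter in this class, neither was called, and 0.00817% of the 12240 genes tested were called in either direction. Dcaf8l (5 and 11 UMIs) and Psg23 (8 and 7 UMIs) were read in Dnmt1 CKO immune-like cells only at 1.59 to 4.37% of their mesenchymal levels, and at 0 in wild type.

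In endothelial-like and epithelial-like cells, Trap1a, Dcaf8l and Psg23 stayed at or under 1.31 CPM in every library. Trap1a gave 0 and 6 UMIs in Dnmt1 CKO endothelial-like cells against 0 and 5 in wild type, and 4 and 26 UMIs in Dnmt1 CKO epithelial-like cells against 2 and 3 in wild type. So a few Trap1a UMIs occur in wild type lung outside the mesenchyme. Xlr was at 5.91 and 1.86 CPM in Dnmt1 CKO endothelial-like cells against 1.58 and 2.54 CPM in wild type (log2 0.82, SE 0.622, edgeR adjusted p = 1), a value that turned to -0.13 without Dnmt1 CKO library 1. In epithelial-like cells Xlr was at 0.670 and 1.56 CPM in Dnmt1 CKO against 0.286 and 0.720 CPM in wild type (log2 1.17, SE 0.677, edgeR adjusted p = 1). Magea10 was not read in endothelial-like, epithelial-like or immune-like cells of any library, and outside the mesenchyme it gave 2 UMIs, both in mesothelial-like cells of Dnmt1 CKO library 2. edgeR called 0.0158% of 12690 genes in endothelial-like cells and 0 of 15341 genes in epithelial-like cells, where 460 genes had an unadjusted p under 0.05 and DESeq2 called 13.

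Plac1 is the one gene of the 6 whose main site was the epithelium, in both genotypes. In alveolar type 1-like cells, the flat cells of gas exchange marked by Ager and Aqp5, Plac1 gave 54 and 37 UMIs in Dnmt1 CKO (38.6 and 14.96 CPM), against 16 and 9 UMIs in wild type (5.75 and 2.73 CPM). Both Dnmt1 CKO libraries lay above both wild type libraries, and the fitted log2 fold change was 2.63 (SE 0.482), given with no test because the gene was chosen for it. That value was 1.46 with Leiden resolution 2.0, 1.86 without Dnmt1 CKO library 1, 3.22 without Dnmt1 CKO library 2, 3.23 without wild type library 1 and 2.14 without wild type library 2. In these cells edgeR called 0.0493% of 10143 genes in either direction and 0.00986% higher, from which nothing is read for Plac1. The same cells numbered 140 and 334 in Dnmt1 CKO and 364 and 319 in wild type, and their Dnmt1 was at 16.5 and 10.5 CPM in Dnmt1 CKO and 18.7 and 14.3 CPM in wild type. Alveolar type 2-like cells, the surfactant cells marked by Sftpc, showed the same order, at 21.8 and 11.9 CPM of Plac1 in Dnmt1 CKO and 4.18 and 2.28 CPM in wild type. Both alveolar classes thus had the same order of the 4 libraries.

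The largest number of Plac1 UMIs came from an epithelial-like cluster with markers of both alveolar types, whose cells had a median 4.10 times the UMIs of their own library. It held 292 and 172 Plac1 UMIs in Dnmt1 CKO (54.4 and 16.3 CPM), against 71 and 31 in wild type (8.75 and 4.10 CPM). The part that doublets take in this cluster was not tested. Sftpc and Slc34a2 were its first leading genes. A deep cluster led by these genes was named alveolar type 2-like with Leiden resolution 2.0, with stricter cell filters and with doublets kept. Ciliated-like cells held Plac1 at 10.2 and 1.91 CPM in Dnmt1 CKO and 0 and 1.24 CPM in wild type, and secretory-like cells gave 0 and 3 UMIs in Dnmt1 CKO and none in wild type. Over all epithelial-like cells the values were 42.3 and 12.4 CPM in Dnmt1 CKO, against 6.94 and 2.94 CPM in wild type. Within the males Plac1 was at 42.3 CPM in Dnmt1 CKO and 2.94 CPM in wild type, and within the females at 12.4 CPM and 6.94 CPM, each from 1 library. Sex and library cannot be told apart within a genotype.

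Thinned to 3000 UMIs, 5.19% and 3.07% of Dnmt1 CKO alveolar type 1-like cells held a Plac1 UMI, against 0.877% and 0.662% in wild type. The exact intervals of Dnmt1 CKO library 1 (2.11 to 10.4%) and wild type library 1 (0.181 to 2.54%) overlap. The intervals of every other pair of a Dnmt1 CKO and a wild type library overlap as well. All of them cover the draw of cells within a library only, so the genotypes are not compared by them. In immune-like cells, which should lack the gene, 1 Plac1 UMI was found in all 4 libraries together. Epithelial markers in mesenchymal-like cells summed to 38.5 and 84.8 CPM in Dnmt1 CKO and 44.3 and 34.5 CPM in wild type, against 5440 and 6178 CPM in Dnmt1 CKO epithelial-like cells. Plac1 was at 3.03 and 2.98 CPM in Dnmt1 CKO mesenchymal-like cells and 42.3 and 12.4 CPM in Dnmt1 CKO epithelial-like cells. The part of epithelial RNA in the mesenchymal value was not tested.

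**Figure D4:**
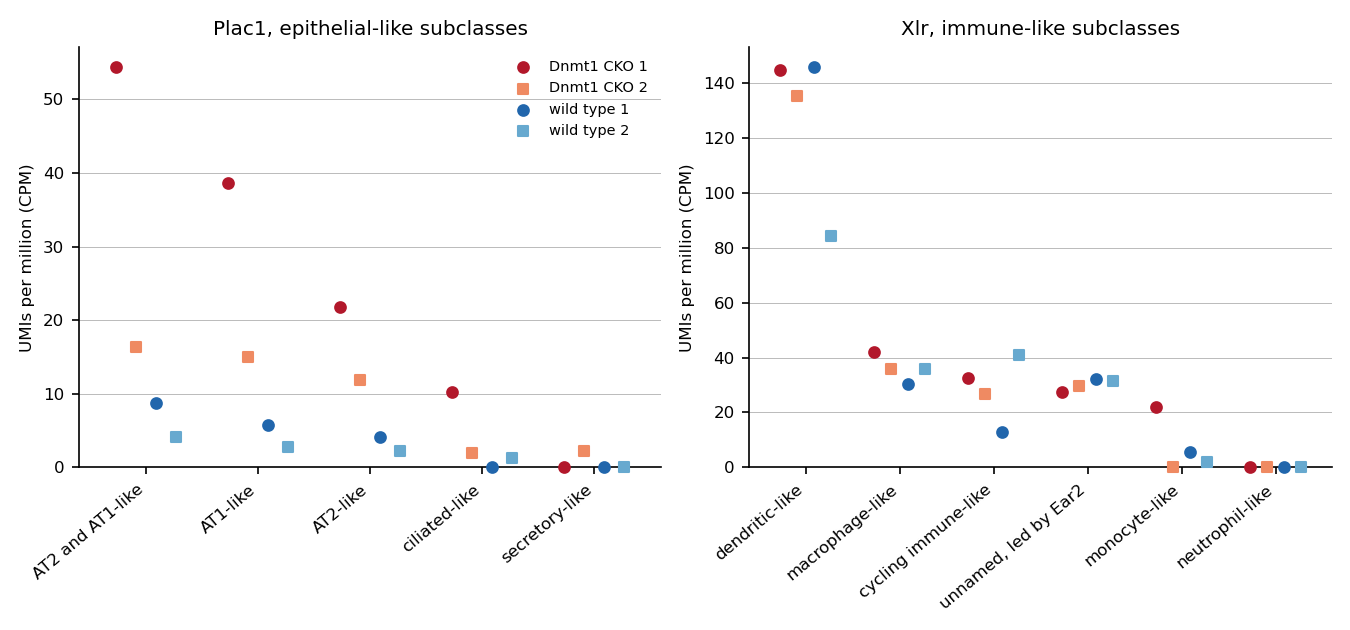
CPM of Plac1 in epithelial-like subclasses (left) and of Xlr in immune-like subclasses (right), 1 point per library, red for Dnmt1 CKO and blue for wild type; AT1 and AT2 stand for alveolar types 1 and 2. Plac1 is above wild type in both Dnmt1 CKO libraries in all 3 alveolar subclasses, with library 1 highest, while Xlr is highest in dendritic-like cells in all 4 libraries.

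The relatives of the 6 genes were then counted in mesenchymal-like cells, on lists without the 6 themselves. Genes that pass the low-count filter only through the mutant had to differ, so these counts are descriptions. In this class 155 tested genes had no wild type UMI and all 155 were called higher, and such genes are given here without a p. Over all 16152 genes tested, 7.25% were called higher, 13.1% in either direction, and the median log2 fold change was 0.01. Of 23 listed type I Mage genes, 16 were in the tables, 6 passed the filter and all 6 were called higher, none of them with a wild type UMI. Their median fitted log2 fold change was 7.82, and 4.24 with each gene set to its bound against 3 wild type UMIs. Mageb16 gave 95 and 61 UMIs in Dnmt1 CKO and none in wild type, at least 52.2-fold higher, and Mageb4 70 and 69 UMIs in Dnmt1 CKO and none in wild type, at least 46.5-fold higher. Magea1, Magea3, Magea4, Magea6, Mageb1, Mageb2 and Mageb5 gave no UMI in mesenchymal-like cells of any library. Type II Mage genes, which are expressed widely in somatic tissue, had 2 of 6 tested called higher and a median of 0.02: the imprinted growth regulator Ndn at 89.4 and 114.9 CPM in Dnmt1 CKO against 52.1 and 51.2 CPM in wild type (log2 0.97, SE 0.197, edgeR adjusted p = 0.0137), and Mageh1 (log2 0.80, SE 0.177, adjusted p = 0.0194). Without Dnmt1 CKO library 2, or without wild type library 2, 0 of these type II genes were called, and without Dnmt1 CKO library 1 there was 1.

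In the Xlr superfamily, 8 of 13 listed genes passed the filter and all 8 were called higher, beside 7.25% of all genes tested. Their log2 fold changes had a median of 5.87, which became 5.51 when Xlr5c, which had no wild type UMI, was set to its bound. Xlr3c gave 725 and 545 UMIs in Dnmt1 CKO against 0 and 1 in wild type, Xlr4b 430 and 297 against 3 and 6, Xlr4c 385 and 272 against 1 and 0, and Xlr3a 111 and 122 against 4 and 6. Like Xlr5c, each of them passed the filter only through its mutant UMIs, so it had to differ. These genes are near-copies of each other, so the division of reads among them is uncertain. Sycp3, a meiotic chromosome axis gene on an autosome that was singled out after its values were seen, was among the 8, with 146 and 110 UMIs in Dnmt1 CKO and 6 and 19 in wild type. Sycp3 and Xlr4a, with 18 and 0 wild type UMIs, likewise passed the filter only through their mutant UMIs. Nothing is therefore read from the count of 8 against the share of all genes. The testis-specific Slx, Slxl1 and Sly gave no UMI.

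Few placental genes beyond Psg23 and Plac1 were read often enough to be tested. None of the 21 other pregnancy-specific glycoprotein and placental Ceacam genes passed the filter, and Psg16, Psg17 and Psg29 alone among them gave any UMI in mesenchymal-like cells. Psg16 had the most, with 7 and 5 UMIs in Dnmt1 CKO against 0 and 2 in wild type. Of 48 other placenta and trophoblast genes, 10 passed the filter and 1 was called higher, near the 7.25% of all genes tested, with a median of 0.74. It was the retrotransposon-derived imprinted gene Peg10, at 19.5 and 21.9 CPM in Dnmt1 CKO and 4.47 and 10.4 CPM in wild type (log2 1.47, SE 0.329, edgeR adjusted p = 0.0207). The trophoblast markers Tpbpa, Tpbpb, Prl3d1, Prl3b1 and Prl2c2 were at 0 in all cells of all 4 libraries, and 9 of 11 trophoblast markers were at 0 in Dnmt1 CKO mesenchymal-like cells. The 11 markers summed to 1.89 and 2.69 CPM there, against 1.68 and 1.09 CPM in wild type. Of 8 germ-cell markers, Dppa3, Nanog and Tfap2c were at 0 in mesenchymal-like cells of all libraries; the list, led by Ddx4 in Dnmt1 CKO and by Kit in wild type, summed to 19.3 and 14.4 CPM in Dnmt1 CKO and 2.44 and 4.90 CPM in wild type.

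Of 43 other cancer-testis orthologues, 42 were in the tables, 15 passed the filter and 9 were called higher, with a median of 3.14, beside 7.25% higher and a median of 0.01 over all genes tested. Of these 9, 3 had no wild type UMI. Sycp1, Nxf2, Mael and Piwil2 also passed the filter only through their mutant UMIs. Nothing is therefore read from the count of 9 against the share of all genes. Usp26, a testis deubiquitinase gene on the X chromosome, gave 489 and 282 UMIs in Dnmt1 CKO and none in wild type, at least 258-fold higher. Hormad1, a meiotic chromosome axis gene, gave 211 and 158 UMIs in Dnmt1 CKO and none in wild type, at least 124-fold higher. Tex14 and Tex15, both needed for spermatogenesis, stood at 13.9 and 15.4 CPM and at 33.9 and 31.2 CPM in Dnmt1 CKO, against 1.10 and 0.792 CPM and 3.31 and 5.74 CPM in wild type. The Dcaf list of substrate receptors and their ligase had 17 genes tested, none called higher and Dcaf11 called lower (log2 -0.66, SE 0.181, edgeR adjusted p = 0.0449), with 5.87% of all genes called lower. Without the 5 X-linked genes described here, 14.6% of 526 X-linked genes tested were called higher, against 6.97% of 15615 autosomal genes. Called lower were 8.94% of the X-linked and 5.77% of the autosomal genes, and the median log2 fold changes were -0.10 and 0.01. Of the 77 X-linked genes called higher, 48 had no wild type UMI, as had 105 of 1089 autosomal ones. Such genes had to differ, so nothing is read from the higher share on the X chromosome.

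**Figure D5:**
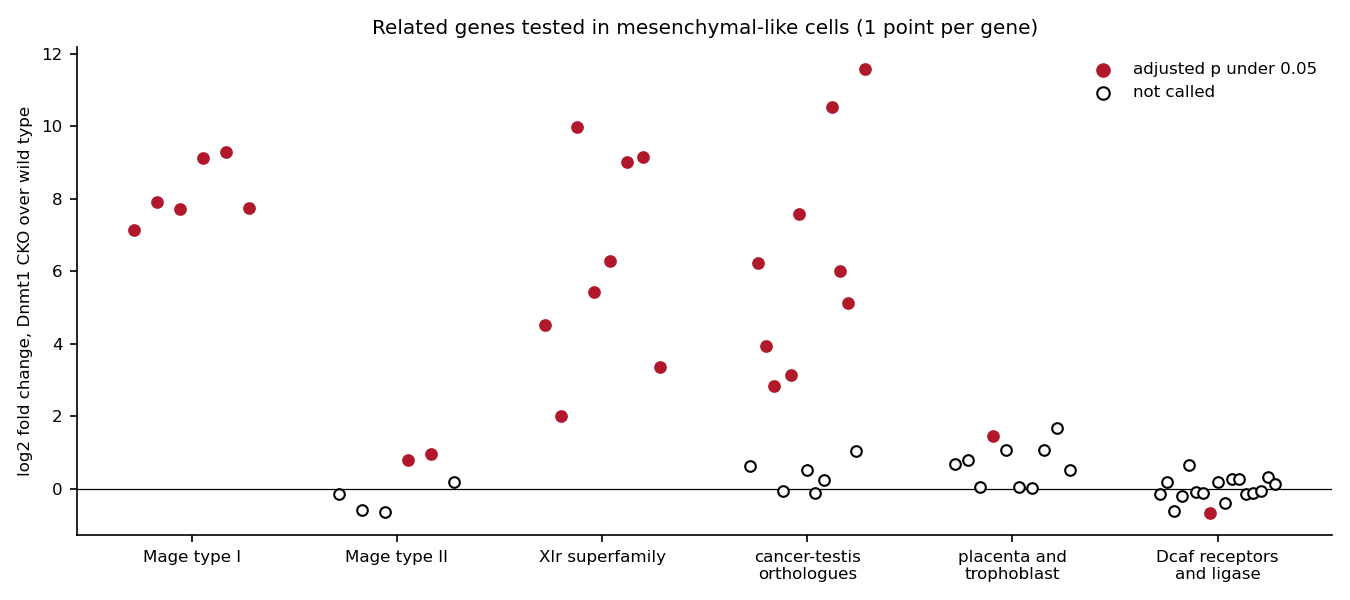
Log2 fold change in mesenchymal-like cells, Dnmt1 CKO over wild type, of the tested genes of 6 lists without the 6 genes described here; each point is 1 gene, filled where edgeR called it and open where it did not. All 6 type I Mage and all 8 Xlr superfamily points lie above 0, whereas the Dcaf points lie around 0 with 1 gene called lower.

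The 3 protein-coding genes on each side of each of the 6 gave 36 chromosomal neighbours, of which 23 did not pass the filter. Of the 13 tested, 3 were called higher (23.1%, beside 7.25% of all genes tested) and 1 lower, and 2 of the 3 had no wild type UMI. The other, 4933428M09Rik, also passed the filter only through its mutant UMIs, so nothing is read from that share. Next to Xlr, 19.3 kb away, 1700013H16Rik gave 195 and 172 UMIs in Dnmt1 CKO and none in wild type, at least 123-fold higher, while Zfp36l3, which lies between them, gave none in any library. Near Trap1a, 4933428M09Rik gave 41 and 24 UMIs in Dnmt1 CKO against 2 and 0 in wild type and was called higher, and Pwwp3b, the nearest neighbour at 95.3 kb, was called lower, at 49.3 and 55.7 CPM in Dnmt1 CKO and 86.3 and 123.4 CPM in wild type (log2 -1.0015, SE 0.205, edgeR adjusted p = 0.0141). The third higher neighbour was Mageb4, 3099 kb from Dcaf8l. All 6 neighbours of Psg23 are pregnancy-specific glycoprotein genes (Psg20, Psg21, Psg22, Psg25, Psg26 and Psg27), and none gave a UMI in mesenchymal-like cells. Of the 6 neighbours of Plac1, 4 passed the filter and none was called; Hprt, 48.3 kb away, was at 38.3 and 37.2 CPM in Dnmt1 CKO and 33.7 and 24.8 CPM in wild type.

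Genes with the most similar pattern over 103 combinations of cell subclass and library were ranked by Pearson r of log2(CPM + 1), leaving out unnamed gene models. Trap1a was most like Dcaf8l (r = 0.915), then the testis transcription factor gene Taf7l (0.913) and Serpinb1c (0.901). Dcaf8l was most like the reproductive homeobox gene Rhox2g (0.932), then Stk31 (0.918) and Hamp2 (0.918). Psg23 was most like Fthl17c (0.916), Olfr11 (0.903) and Stk31 (0.896), and Magea10, with 31 UMIs in all, like Olfr1029 (0.854), Xlr5c (0.820) and CN725425 (0.811). Xlr was most like genes of immune cells, AI662270 (0.731), Ly86 (0.668) and Mgl2 (0.650), and Plac1 like Arfgef3 (0.809), Slc22a13 (0.754) and Cdcp1 (0.719). Between the 6 genes r was 0.915 for Trap1a with Dcaf8l, 0.895 for Dcaf8l with Psg23 and 0.831 for Trap1a with Psg23, against 0.508 for Trap1a with Xlr and 0.183 for Trap1a with Plac1. The points share libraries and depth, so no p is given.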

How the data were processed

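The deposited tables hold UMI counts per gene and barcode of 4 libraries, made by the authors with Cell Ranger 3.1.0 on GRCm38.p6, per the submitters' processing notes. The notes also name bcl2fastq 2.20 and Seurat. Library totals and cells are given with the results, and counting intervals cover counting error only.

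Barcodes with under 500 genes or over 20% mitochondrial UMIs and doublets called by scrublet (expected 6%) were left out. Cells were clustered with scanpy 1.11.5 (2000 variable genes without sex-linked, mitochondrial and haemoglobin genes, 30 principal components, 15 neighbours, Leiden resolution 1.0 with leidenalg 0.10.2). Clusters were named from 35 marker lists, and the scoring rule (minimum 0.4, at least 3 markers) was set after the clusters were seen. UMI counts were summed per library and class and tested with edgeR 4.0.16 (filterByExpr, TMM, quasi-likelihood, Benjamini-Hochberg over all genes of the class, threshold 0.05) in R 4.3.3, checked on simulated data. DESeq2 1.42.0 was an alternative. Other alternatives were size factors, no filter, a replicate block, a sex term, stricter cell filters, doublets kept, Leiden resolution 2.0, thinning to 2000 UMIs, a pseudocount of 0.1 and each library left out. With 2 libraries against 2, an exact permutation test cannot go below p = 0.333, so none is given.

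The 6 genes and all lists were chosen with earlier results of these data known. Named genes are the 6, Dnmt1, Dazl, up to 4 called genes per list and direction with the smallest adjusted p, every called neighbour, and the 3 most similar symbols per gene. Xist and the genes at 0 were added. Promoter sequences come from RefSeq on GRCm38.p6.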

Additional observations from a re-analysis of the deposited data

Results flagged for a closer look

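Barcodes left out for few genes or a high mitochondrial share also held these transcripts in the mutant libraries. They numbered 2612 and 2063 in Dnmt1 CKO libraries 1 and 2, and 1359 and 1180 in wild type libraries 1 and 2. They gave 15 and 17 UMIs of Trap1a, 8 and 22 of Dcaf8l, 15 and 18 of Psg23, and 6 and 4 of Plac1 in Dnmt1 CKO. All 4 genes were at 0 in such barcodes of both wild type libraries. These signals lie outside the cells used in the comparisons, and this is why they are listed.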

How the results depend on the processing

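Of 335 values recomputed under other settings, 260 were rated unchanged, 72 moved, 2 passed the threshold anew and 1 reversed. The rule depended on the kind of value. Counts of called genes and r had to stay close to the main value, and untested fold changes and shares within their spread. Tested fold changes had to keep their direction and their side of the threshold. All 71 fold changes of the 6 genes in mesenchymal-like cells stayed above 0. The cause of each move was not tested.

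Counts of called genes moved most. In the order mesenchymal-like, mesothelial-like, epithelial-like, alveolar type 1-like, endothelial-like and immune-like, they were 2119, 50, 0, 5, 2 and 1, and became 3428, 276, 151, 89, 124 and 285 with no low-count filter. With the replicate number as a block they were 3319, 95, 156, 120, 51 and 9, but same-numbered libraries deviated together only weakly (r = 0.103 over 16152 genes) and with 2 pairs they share only a number. With a sex term they were 184 in mesothelial-like, 2 in alveolar type 1-like, 13 in endothelial-like and 0 in immune-like cells. DESeq2 called 13 in epithelial-like, 12 in alveolar type 1-like, 14 in endothelial-like and 32 in immune-like cells. Stricter cell filters gave 16 in alveolar type 1-like cells. Keeping doublet calls gave 1 in alveolar type 1-like, 19 in endothelial-like and 4 in immune-like cells.

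Leaving out 1 library at a time gave 1015 to 2341 called genes in mesenchymal-like cells (1344 without Dnmt1 CKO library 1, 1015 without wild type library 2), 41 to 187 in mesothelial-like, 0 to 66 in epithelial-like, 36 to 147 in alveolar type 1-like, 0 to 105 in endothelial-like and 0 to 618 in immune-like cells. A lone library is assumed there to vary like the other group. The log2 fold changes in mesenchymal-like cells ranged over 10.60 to 13.57 for Trap1a, 6.80 to 7.18 for Magea10 (below the filter in 1 of the fits), 3.83 to 4.69 for Xlr, 12.35 to 12.52 for Dcaf8l, 9.20 to 12.59 for Psg23 and 1.72 to 3.92 for Plac1, and over 1.86 to 3.23 for Plac1 in alveolar type 1-like cells. In mesothelial-like cells they were 8.30 to 9.21 for Trap1a and 7.59 to 7.97 for Xlr, fitted values over a wild type group with no UMI, from which nothing is read. Xlr ranged over 0.37 to 1.92 in epithelial-like, 0.17 to 0.33 in immune-like and -0.13 to 1.52 in endothelial-like cells, where it reversed to -0.13 without Dnmt1 CKO library 1. Trap1a in immune-like cells ranged over 3.14 to 3.59, and was 3.33 with no filter. Nothing is read from these values either, since Trap1a passed the filter there only through its mutant UMIs. List members called higher numbered 5 to 6 for type I Mage, 0 to 2 for type II Mage, 8 in every fit for the Xlr superfamily, 0 to 1 for Dcaf, 1 to 2 for placenta and 9 to 10 for cancer-testis genes, with 3 to 5 called neighbours.

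DESeq2 gave 11.87 for Dcaf8l in mesenchymal-like cells. Leiden resolution 2.0 gave 1.46 for Plac1 in alveolar type 1-like cells and 2 placenta genes called higher. With no filter, and likewise with the replicate block, 1 Dcaf and 3 placenta genes were called higher. Thinning to 2000 UMIs gave lower shares of Dnmt1 CKO mesenchymal-like cells, each the mean of the 2 libraries. They were 11.8% for Trap1a (16.03% at 3000 UMIs), 0.0976% for Magea10 (0.303%), 5.08% for Xlr (7.41%), 6.61% for Dcaf8l (8.75%) and 7.23% for Psg23 (10.1%). Rare genes are limited by depth: Magea10 rests on 31 UMIs in all cells.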
